A study of Mus musculus with 15 samples.

Results

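The transcripts of 32 established target genes of the tumour suppressor p53 were followed one by one in mouse leukemia samples labelled as B-cells. The members were chosen by gene symbol as known p53 targets. All 32 were found among the 16470 genes listed for cells in vehicle (DMSO) and among the 16428 genes listed for cells in ibrutinib, 15869 of which were listed in both. By role, 8 act in cell cycle arrest and feedback on p53, 14 in apoptosis, 5 in DNA repair and 5 in metabolism or other processes.

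RNA-Seq was performed on cells labelled as B-cells, from the leukemic spleens of C57Bl/6 mice that had received no treatment, after culture for 24 hours. All mice carried the Eμ-TCL1 transgene, which expresses the TCL1 oncogene in B-cells and gives rise to a disease like chronic lymphocytic leukemia (CLL). The 4 groups were Eμ-TCL1 in DMSO (replicates 2, 3 and 4), Eμ-TCL1;p53R172H/+ in DMSO (replicates 1 to 5), Eμ-TCL1 in 5 μM ibrutinib (replicates 1, 3 and 4) and Eμ-TCL1;p53R172H/+ in 5 μM ibrutinib (replicates 1, 3, 4 and 5). Ibrutinib is a covalent inhibitor of Bruton's tyrosine kinase. Eμ-TCL1;p53R172H/+ mice carry a Trp53 allele with the R172H substitution beside a wild-type allele, and the cells of both genotypes therefore hold at least 1 copy of wild-type Trp53 unless it was lost in the leukemia. The age of the mice is not given in the sources used here. The labels do not say that each replicate is a separate mouse, so p-values measure the spread between these samples.

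The p53 protein is a transcription factor that binds a palindromic DNA element made of repeated half-sites and is stabilized when cells are stressed, above all by DNA damage. Its targets halt the cell cycle, start apoptosis through the mitochondria and through death receptors, support DNA repair, and, through Mdm2 and Ppm1d, switch p53 off again. The R172H protein is structurally misfolded and binds this element poorly, and in CLL the loss of p53 function goes with poor responses to DNA-damaging drugs.

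The binding element was searched for near the starts of the members. Because the members were chosen as known p53 targets, a share above that of all genes is no test of them. RefSeq promoter windows of 300 bases (GRCm38.p6, 250 bases before to 50 bases after an annotated start) were at hand for 24 of the 32 members, and 8 members had none. A perfect p53 half-site of 10 bases, searched as the consensus palindrome, which covers both strands, stood in a window of 11 of these 24 members (45.8%), namely Gadd45a, Bax, Aen, Ei24, Rps27l, Sesn1, Mdm2, Ccng1, Ppm1d, Polk and Cdkn1a. Over all 27025 genes with a window the share was 9.55%. A full element of 20 bases, 2 half-sites with no gap, with at most 1 mismatch was found in 3 members (12.5%), against 0.107% of all genes. These 3 elements are printed because they are the closest matches among the members, in the direction of transcription, with the 4 core bases of each half-site in capitals.
Cdkn1a: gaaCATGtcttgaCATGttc
Rps27l: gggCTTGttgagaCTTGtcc
Ccng1: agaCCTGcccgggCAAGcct
The Cdkn1a element, at chr17:29090928-29090947 on the plus strand of GRCm38, ends 29 bases before the first base of the gene in GENCODE M21 and overlaps no gene there. The Rps27l element, at chr9:66946296-66946315 on the plus strand, lies in an intron of Rps27l. The Ccng1 element, at chr11:40755462-40755481 on the minus strand, ends 151 bases before the first base of the gene and overlaps no annotated gene. Cdkn1a and Rps27l each had another window, around another annotated start, that held no half-site. The closest matches there had 5 mismatches for Cdkn1a and 4 for Rps27l. A match describes these letters and no binding was measured.

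The values are read counts per gene that the authors scaled to an effective library size (CPM), separately for DMSO and for ibrutinib. They are called normalized values here, and the depth of the libraries is unknown. Libraries were not alike in cell content. The summed value of 7 B-cell markers was between 2808.7 and 5238.7 in 5 of the 8 DMSO libraries, but was 230.3 and 230.8 in Eμ-TCL1;p53R172H/+ replicates 1 and 2 and 460.9 in Eμ-TCL1 replicate 2. In replicates 1 and 2 of Eμ-TCL1;p53R172H/+ the summed value of 9 T-cell markers was 2332.9 and 2766.6, against 138.9 to 483.5 in the other DMSO libraries. In ibrutinib the T-cell sum was 1563.3 in Eμ-TCL1;p53R172H/+ replicate 1 (B-cell sum 56.3) and 988.3 in replicate 3 (B-cell sum 437.3), against 111.9 to 660.7 elsewhere. T-cell sums parted the genotypes there, from 512.6 to 1563.3 in Eμ-TCL1;p53R172H/+ and from 111.9 to 395.4 in Eμ-TCL1. Eμ-TCL1 replicate 2 in DMSO and replicate 1 in ibrutinib had summed values of 8 myeloid markers of 29044.7 and 20621.8, against 31.3 to 1165.3 in all other libraries. Their summed values of 6 erythroid markers were also apart, at 4718.6 and 4755.7, against 3.8 to 85.8 in all other libraries. These libraries are called myeloid-rich below, a name that leaves out their erythroid transcripts. Each of the 9 T-cell markers was above 0 in every library. The labels call all of these samples B-cells. Eμ-TCL1;p53R172H/+ replicates 1 and 2 in DMSO and 1 in ibrutinib, with the 3 lowest B-cell sums, are called B-cell-poor below. Replicate 3 of that genotype in ibrutinib (437.3) and the libraries with high myeloid sums (460.9 and 375.1) were also low. They are not counted among the B-cell-poor libraries. All Eμ-TCL1 libraries expressed Xist and none the Y-linked Ddx3y, whereas Eμ-TCL1;p53R172H/+ replicates 1, 2 and 4 in DMSO and 1, 3 and 4 in ibrutinib expressed Ddx3y, so genotype and sex are confounded in part. Eμ-TCL1;p53R172H/+ replicate 3 expressed Xist in DMSO (1491.3) and Ddx3y in ibrutinib (82.1), so its number does not mark the same mouse in both treatments. In such mixed samples fewer cells of a type and less RNA per cell cannot be told apart.

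Trp53 itself ranged from 26 to 52.3 in Eμ-TCL1 and from 52.1 to 67 in Eμ-TCL1;p53R172H/+ in DMSO, and from 22.7 to 35.2 and from 31.8 to 39.5 in ibrutinib. Its log2 change between genotypes did not pass the test (0.51, standard error 0.25, adjusted p = 0.636 in DMSO; 0.35, standard error 0.19, adjusted p = 0.498 in ibrutinib). Transcripts of both alleles are counted together, so these values do not check the genotype labels.

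To determine whether a mutant Trp53 allele went with other levels of p53 target transcripts, the genotypes were compared in DMSO. None of the 32 members passed the test in limma, fitted across all genes with Benjamini-Hochberg adjustment at 0.05, which called 2 of 16470 genes (0.0121%). At an unadjusted p under 0.05 the count was 1 member, Bax, against 1346 genes (8.17%), a share of the members below that of all genes. Log2 changes, given throughout as Eμ-TCL1;p53R172H/+ minus Eμ-TCL1, were below 0 for 17 members, against 46.7% of all genes, with a median of -0.04 over the members and 0.04 over all genes. The groups were without overlap for 1 member, again Bax, against 6.45% of all genes. The smallest adjusted p among the members was 0.543.

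**Figure D1:**
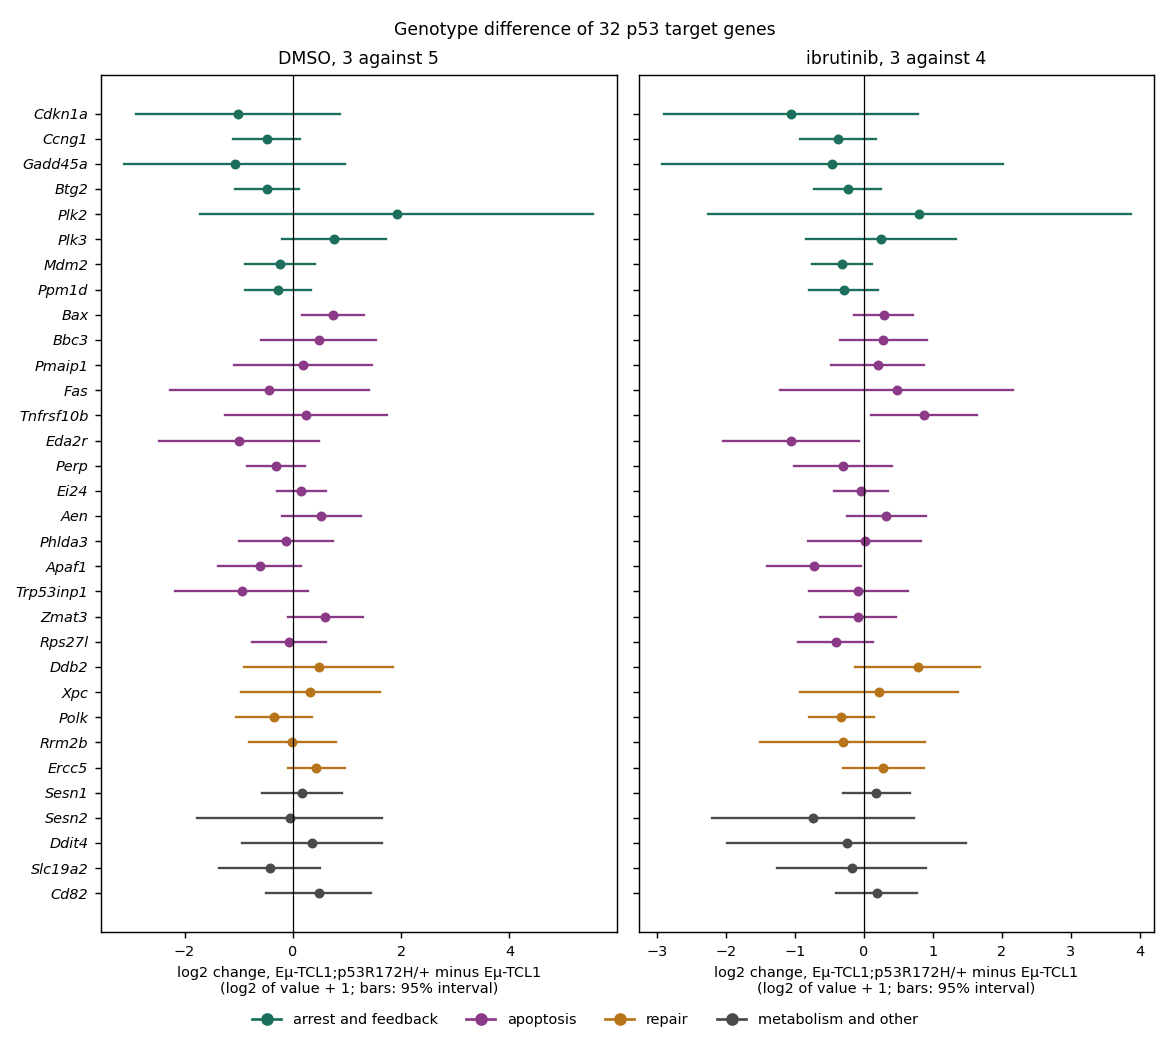
Genotype difference of each of the 32 p53 target genes in DMSO (left, 3 against 5 libraries) and in ibrutinib (right, 3 against 4 libraries). Points are log2 changes of the value plus 1, Eμ-TCL1;p53R172H/+ minus Eμ-TCL1, bars are 95% intervals from limma, and colours mark the role. The interval of Bax in DMSO, from 0.18 to 1.32, and those of Tnfrsf10b, Eda2r and Apaf1 in ibrutinib do not cross 0, and those of Plk2, Gadd45a and Cdkn1a are among the widest.

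Bax, the pore-forming effector that opens the outer mitochondrial membrane, had the lowest p of the members in DMSO. Its normalized values in DMSO were 30.1, 27.4 and 36.7 in Eμ-TCL1 replicates 2, 3 and 4, and 40.7, 41.7, 52.7, 66.1 and 70.3 in Eμ-TCL1;p53R172H/+ replicates 1 to 5. Every p53R172H/+ library was above every Eμ-TCL1 library, with means of 31.4 ± 4.78 (SD, n = 3) and 54.3 ± 13.6 (SD, n = 5). The log2 change was 0.75 (standard error 0.25, 95% interval 0.18 to 1.32, adjusted p = 0.543 by limma). The two-sided exact permutation test gave p = 0.0357, the smallest that the 56 splits of 8 libraries allow. Any gene without overlap gives this p, as 6.45% of all genes do, so it adds no separate support. The 2 p53R172H/+ libraries rich in T-cell transcripts held the lowest values of their group, and without them the log2 change was 0.98 (standard error 0.22, adjusted p = 0.286 by limma). In ibrutinib Bax was 33.8, 30.2 and 32.9 in Eμ-TCL1 and 44.5, 30.3, 45.6 and 40.1 in Eμ-TCL1;p53R172H/+. There replicate 3 of p53R172H/+ sat within the range of Eμ-TCL1 and the other libraries of that genotype above it. An exon of Bax overlaps an exon of Gm45808 on the same strand in GENCODE M21, and reads in that stretch cannot be assigned to either.

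Cdkn1a encodes p21, the inhibitor of cyclin-dependent kinases that carries much of the G1 arrest by p53. In DMSO its values were 23.8, 2.8 and 10.4 in Eμ-TCL1 and 1.2, 1.2, 3.9, 14.8 and 7.9 in Eμ-TCL1;p53R172H/+. In ibrutinib they were 21.4, 7.3 and 6 in Eμ-TCL1 and 0.6, 5.7, 15 and 3.5 in Eμ-TCL1;p53R172H/+. The genotypes overlapped in both treatments, the libraries rich in myeloid transcripts were highest, and the libraries poorest in B-cell transcripts were lowest. The log2 change was -1.02 in DMSO (standard error 0.83, 95% interval -2.90 to 0.87, adjusted p = 0.680 by limma, and p = 0.321 in the exact permutation test). In ibrutinib it was -1.05 (standard error 0.79, 95% interval -2.89 to 0.79, adjusted p = 0.588 by limma, and p = 0.286 in the exact permutation test, whose smallest possible p over 35 splits is 0.0571). With the myeloid-rich and the B-cell-poor libraries left out, the direction turned in both treatments, to 0.42 in DMSO and 0.041 in ibrutinib.

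Mdm2, the ubiquitin ligase that targets p53 for destruction and is itself induced by p53, was 130.4, 70.6 and 81 in Eμ-TCL1 and 74, 56.1, 101.1, 67.4 and 94 in Eμ-TCL1;p53R172H/+ in DMSO. The ranges overlapped, and the highest of the 8 values was again in the myeloid-rich Eμ-TCL1 library. Its log2 change was -0.24 (standard error 0.28, 95% interval -0.88 to 0.40, adjusted p = 0.773 by limma, and p = 0.429 in the exact permutation test). In ibrutinib Mdm2 was 105, 66.7 and 75.6 in Eμ-TCL1 and 59.3, 71.1, 64.5 and 65.1 in Eμ-TCL1;p53R172H/+. There the log2 change was -0.31 (standard error 0.19, 95% interval -0.75 to 0.12, adjusted p = 0.532 by limma, and p = 0.114 in the exact permutation test). Without the myeloid-rich library the DMSO change was 0.021.

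**Figure D2:**
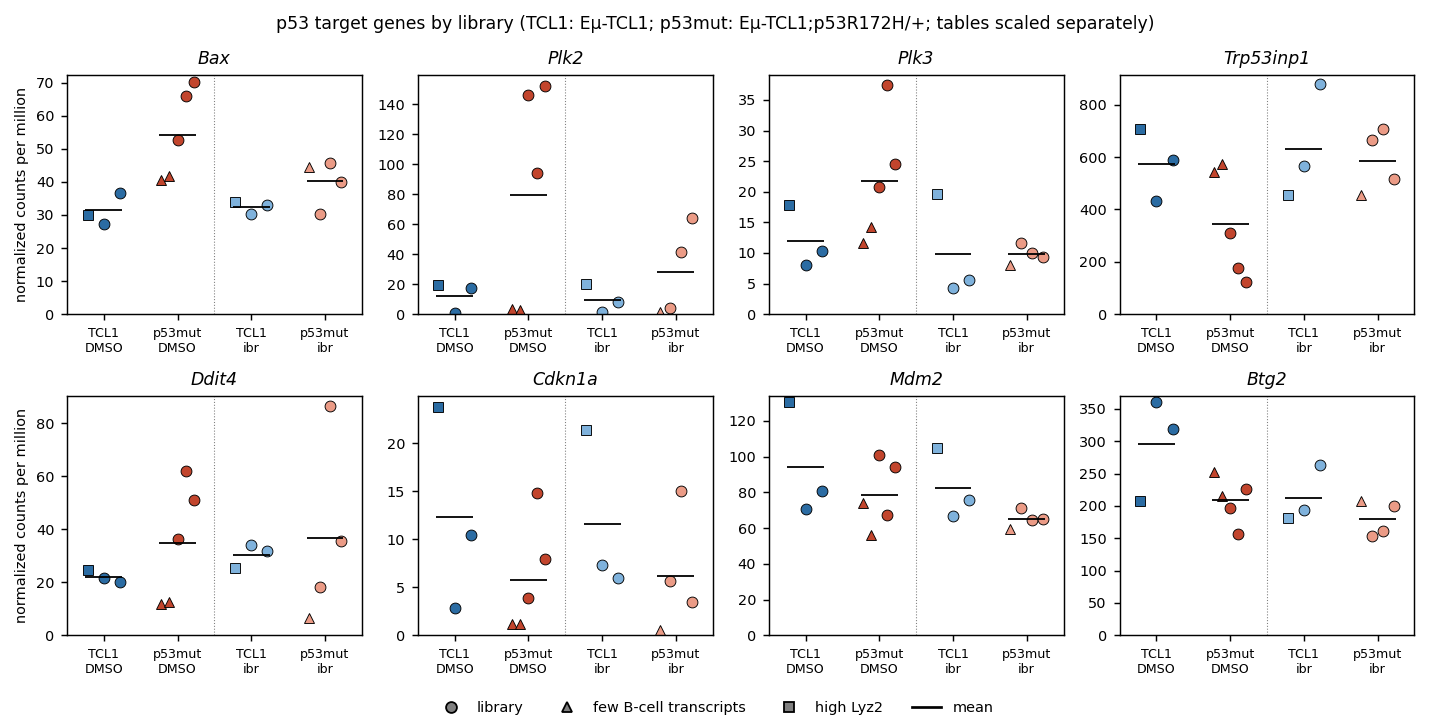
Normalized values (CPM) of 8 members in each of the 15 libraries, by genotype (TCL1, Eμ-TCL1; p53mut, Eμ-TCL1;p53R172H/+) and treatment (ibr, ibrutinib). Horizontal lines are group means, triangles mark the 3 libraries with the fewest B-cell transcripts and squares those with high Lyz2, a myeloid gene. DMSO and ibrutinib values were scaled separately. In DMSO the 3 remaining p53mut libraries lie above all Eμ-TCL1 libraries for Bax, Plk2, Plk3 and Ddit4 and below them for Trp53inp1. For Cdkn1a, Mdm2 and Btg2 they overlap with Eμ-TCL1. The 8 members were picked for display, and the share of all genes parted in this way was not computed, so the parting is description only.

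Of the 8 arrest and feedback genes, 6 had log2 changes below 0 in DMSO and 6 in ibrutinib, none with an adjusted p under 0.05 by limma and none with an unadjusted p under 0.05 in either. Plk2, a polo-like kinase of the stress response, varied widely within groups. It was 19.3, 0.6 and 17.4 in Eμ-TCL1 and 3.3, 2.5, 146.1, 94.3 and 152.4 in Eμ-TCL1;p53R172H/+ in DMSO. The 3 p53R172H/+ libraries rich in B-cell transcripts were above every Eμ-TCL1 library, and the 2 rich in T-cell transcripts were below replicates 2 and 4 of Eμ-TCL1. In ibrutinib the values were 20, 1.5 and 7.8 in Eμ-TCL1 and 1.3, 4.2, 41.8 and 64.5 in Eμ-TCL1;p53R172H/+, and within p53R172H/+ the 2 libraries with the most T-cell transcripts were again lowest. Plk3, a kinase of the same family, was 17.8, 8 and 10.3 in Eμ-TCL1 and 11.6, 14.3, 20.8, 37.5 and 24.5 in Eμ-TCL1;p53R172H/+ in DMSO. In ibrutinib it was 19.6, 4.3 and 5.6, and 8.1, 11.7, 10 and 9.3. Its highest Eμ-TCL1 value was in the myeloid-rich library in both treatments, and the other Eμ-TCL1 libraries were below every p53R172H/+ library.

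Gadd45a, which slows the cycle at G2/M and takes part in repair, was 53.5, 5.2 and 8.3 in Eμ-TCL1 and 2.1, 2.2, 5.3, 23.1 and 9.8 in Eμ-TCL1;p53R172H/+ in DMSO. The values in ibrutinib were 46.1, 24.2 and 29.7, and 2.1, 36.2, 96.1 and 29.7. The myeloid-rich Eμ-TCL1 library was highest in DMSO, the B-cell-poor p53R172H/+ libraries were lowest in both treatments, and p53R172H/+ replicate 4 was highest in ibrutinib. Ccng1, the cyclin G1 gene, was 180.1, 234.8 and 255.6 in Eμ-TCL1 and 165.8, 203.3, 207.5, 126.3 and 112.9 in Eμ-TCL1;p53R172H/+ in DMSO, with 3 of the 5 p53R172H/+ libraries below every Eμ-TCL1 library. In ibrutinib it ran from 114.4 to 186.1 and from 82.1 to 128.7. Btg2, an antiproliferative regulator of mRNA decay, was 206.8, 360 and 319 in Eμ-TCL1 and 252.8, 215.6, 196.7, 156.3 and 226.3 in Eμ-TCL1;p53R172H/+ in DMSO. Here the lowest Eμ-TCL1 value was that of the myeloid-rich library, and both other Eμ-TCL1 libraries lay above all of p53R172H/+. In ibrutinib the ranges of Btg2 were 181.1 to 263.3 and 153.1 to 208.1. Ppm1d, the phosphatase Wip1 that turns off the damage response, ran from 36 to 63.3 and from 28.7 to 50.3 in DMSO, and from 29.8 to 50 and from 25.8 to 35 in ibrutinib. The genotypes overlapped for Ccng1, Btg2 and Ppm1d in both treatments.

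Among the 14 apoptosis genes, 7 had log2 changes below 0 in each treatment, and none passed the test in limma. Those with an unadjusted p under 0.05 were Bax in DMSO and Tnfrsf10b, Eda2r and Apaf1 in ibrutinib. Bbc3, the BH3-only protein Puma, was 29.4, 10.2 and 18.9 in Eμ-TCL1 and 48.3, 33, 16.4, 14.5 and 27.1 in Eμ-TCL1;p53R172H/+ in DMSO. Under ibrutinib it was 29.9, 21.7 and 30.7, and 41.1, 22, 31.2 and 42.8. Replicates 1 and 2 of p53R172H/+ were the highest DMSO libraries, and the remaining ones lay within the range of Eμ-TCL1. Pmaip1, the BH3-only protein Noxa, was 21.2, 10.3 and 11.6 in Eμ-TCL1 and 21, 23.9, 8.9, 33.9 and 5.9 in Eμ-TCL1;p53R172H/+ in DMSO, with both the highest and the lowest value in p53R172H/+. With ibrutinib the values were 14.8, 9.3 and 9.1, and 10.8, 11.2, 19.2 and 10.7.

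The values of the death receptors moved with the marker content of the libraries, whose part in the genotype differences was not tested beyond leaving libraries out. Tnfrsf10b, the mouse TRAIL receptor, was 2.8, 2.1 and 2.7 in Eμ-TCL1 and 8.3, 10.6, 1, 1.5 and 1.3 in Eμ-TCL1;p53R172H/+ in DMSO. The T-cell-rich libraries were above and the other p53R172H/+ libraries below every Eμ-TCL1 library. In ibrutinib Tnfrsf10b was 2, 2.3 and 2.1 in Eμ-TCL1 and 6.6, 7.2, 3.2 and 3.1 in Eμ-TCL1;p53R172H/+. Here every p53R172H/+ library was above every Eμ-TCL1 library, and replicates 1 and 3, with T-cell marker sums of 1563.3 and 988.3, were highest. Its log2 change in ibrutinib was 0.87 (standard error 0.33, 95% interval 0.11 to 1.64, adjusted p = 0.368 by limma, and p = 0.0571 in the exact permutation test, the smallest possible). Without replicate 1 of p53R172H/+ it was 0.73 (standard error 0.33), but the remaining p53R172H/+ libraries still had higher T-cell sums than every Eμ-TCL1 library. With sex as a covariate it was 0.39. Fas, the receptor of Fas ligand, was 22.9, 1.7 and 4.2 in Eμ-TCL1 and 8.4, 9.8, 2, 4.6 and 1.1 in Eμ-TCL1;p53R172H/+ in DMSO. Its values under ibrutinib were 14.7, 0.7 and 2.8, and 6.1, 9.4, 4.1 and 3.7. The highest value was in the myeloid-rich library in both treatments, and without it all p53R172H/+ libraries in ibrutinib were above Eμ-TCL1. Eda2r, an X-linked receptor of ectodysplasin, was 8.3, 0 and 0.3 in Eμ-TCL1 and at most 0.4 in Eμ-TCL1;p53R172H/+ in DMSO. In ibrutinib it was 4.1, 1.1 and 0.4 in Eμ-TCL1 and 0, 0.1, 0.5 and 0.2 in Eμ-TCL1;p53R172H/+. The ranges overlapped, and the log2 change was -1.06 (standard error 0.42, 95% interval -2.05 to -0.06, adjusted p = 0.394 by limma, and p = 0.114 in the exact permutation test). Without the myeloid-rich library it was -0.53 (standard error 0.23). Eda2r exceeded 0.5 CPM, the authors' filter for listing a gene, only in Eμ-TCL1 libraries. Its listing may thus rest on them, which favours a lower p53R172H/+ value, so its log2 change and p are description only.

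Apaf1, the scaffold of the apoptosome that activates caspase-9, was 203.4, 88.2 and 72.4 in Eμ-TCL1 and 70, 65.8, 84.6, 58.9 and 78.5 in Eμ-TCL1;p53R172H/+ in DMSO. The values in ibrutinib were 164.5, 85.2 and 67.2 in Eμ-TCL1 and 57.9, 59.1, 58.9 and 59.6 in Eμ-TCL1;p53R172H/+. The p53R172H/+ libraries in ibrutinib lay close together and all below Eμ-TCL1, whose highest value was in the myeloid-rich library. Its log2 change in ibrutinib was -0.73 (standard error 0.29, 95% interval -1.41 to -0.04, adjusted p = 0.394 by limma, and p = 0.0571 in the exact permutation test, the smallest possible). Without the myeloid-rich library it was -0.36 (standard error 0.14, adjusted p = 0.300 by limma).

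Trp53inp1, a stress protein of autophagy and p53-driven death, was 705.5, 431.1 and 586.9 in Eμ-TCL1 and 544.1, 572.3, 311.6, 177.6 and 121.8 in Eμ-TCL1;p53R172H/+ in DMSO. The T-cell-rich replicates 1 and 2 were within the range of Eμ-TCL1 and the other p53R172H/+ libraries below it. In ibrutinib the values were 453.4, 566.9 and 877.2, and 453.8, 665.5, 707.8 and 517, and the genotypes overlapped throughout. Aen, an apoptosis-enhancing nuclease, was 25.3, 32.7 and 41.9 in Eμ-TCL1 and 38.2, 28.8, 58.4, 65.4 and 57.2 in Eμ-TCL1;p53R172H/+ in DMSO. Replicates 3, 4 and 5 of p53R172H/+ were above every Eμ-TCL1 library and replicates 1 and 2 were not. In ibrutinib Aen ran from 13 to 20.3 and from 16.6 to 26.3. Zmat3, an RNA-binding zinc finger protein, was 18.2, 23 and 43.8 in Eμ-TCL1 and 34.7, 47.5, 32.7, 42 and 48.7 in Eμ-TCL1;p53R172H/+ in DMSO, and ran from 17.6 to 23.5 and from 14.8 to 27.2 in ibrutinib. Rps27l, a ribosomal protein paralog, was 29.1, 30.4 and 32.9 in Eμ-TCL1 and 20.6, 19.2, 37.5, 41.5 and 34.3 in Eμ-TCL1;p53R172H/+ in DMSO. The T-cell-rich libraries were below and the others above the whole Eμ-TCL1 range. Under ibrutinib it was 19.7, 11.6 and 20.4, and 12, 11.7, 13.3 and 12.5. Ei24, a protein of the endoplasmic reticulum linked to apoptosis and autophagy, ran from 29.2 to 36.7 and from 33.4 to 46.7 in DMSO and from 24.3 to 27.1 and from 22.1 to 29.1 in ibrutinib. Phlda3, which restrains Akt, was at most 5 in every library. Perp, a membrane protein of cell junctions and apoptosis, was 1.1 and 1.4 in the myeloid-rich libraries and at most 0.2 in every other library. It too exceeded 0.5 CPM only in Eμ-TCL1 libraries. Perp and Eda2r are both among the members counted as below 0 in DMSO and in ibrutinib, which their listing may favour.

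Of the 5 repair genes, 2 had log2 changes below 0 in each treatment, and none had an adjusted p or an unadjusted p under 0.05 in limma. Ddb2, the damage sensor of nucleotide excision repair, was 15.6, 25.3 and 21.7 in Eμ-TCL1 and 63.2, 71.3, 19.3, 11.3 and 19.8 in Eμ-TCL1;p53R172H/+ in DMSO. With ibrutinib the values were 11.2, 26.1 and 22.3, and 55.6, 35.8, 25 and 23.8. The highest values were in the p53R172H/+ libraries richest in T-cell transcripts in both treatments. Xpc, which recognizes distorted DNA in the same pathway, was 61.8, 29 and 27.4 in Eμ-TCL1 and 95.3, 93.7, 32.9, 20.5 and 34.1 in Eμ-TCL1;p53R172H/+ in DMSO, and 65.1, 19.9 and 30.5, and 79.3, 39.3, 27 and 30.3 in ibrutinib. It was high in both kinds of libraries that stood apart. Polk, a polymerase that copies past lesions, ran from 24.9 to 35.1 and from 13.4 to 32.6 in DMSO and from 18 to 25.6 and from 14.1 to 20.3 in ibrutinib. Rrm2b, the p53-inducible subunit of ribonucleotide reductase, was 36.9, 48.9 and 46.1 in Eμ-TCL1 and 51.1, 58.8, 41, 59.2 and 20.9 in Eμ-TCL1;p53R172H/+ in DMSO. Its values under ibrutinib were 27.2, 102.3 and 109.3, and 45.8, 70.8, 71.4 and 37.9, with the 2 Eμ-TCL1 libraries rich in B-cell transcripts above all others. Ercc5, the endonuclease Xpg, ran from 18.9 to 27.3 and from 26 to 38.4 in DMSO and from 14 to 25.7 and from 21.2 to 30.5 in ibrutinib, with overlap in both.

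Among the 5 genes of metabolism and other processes, 2 had log2 changes below 0 in DMSO and 3 in ibrutinib, none with an adjusted p or an unadjusted p under 0.05 in limma. Ddit4 (Redd1) and Sesn2, which restrain mTORC1 under stress, had like patterns. Ddit4 was 24.6, 21.7 and 20.1 in Eμ-TCL1 and 12, 12.7, 36.5, 62 and 51.2 in Eμ-TCL1;p53R172H/+ in DMSO, with replicates 1 and 2 below and the others above the Eμ-TCL1 range. Sesn2 was 49.5, 30.2 and 43.4 in Eμ-TCL1 and 17, 10.6, 45.9, 127.6 and 75 in Eμ-TCL1;p53R172H/+. In ibrutinib Ddit4 was 25.3, 34 and 31.9, and 6.7, 18.3, 86.5 and 35.6, and Sesn2 was 49.9, 74.2 and 84.2, and 11.2, 48.3, 83 and 57. Both were lowest in the p53R172H/+ libraries with the fewest B-cell transcripts and highest, for p53R172H/+, in replicate 4. Sesn1, another sestrin, was 46.9, 51.1 and 54.8 in Eμ-TCL1 and 63.4, 63.8, 72.3, 28.6 and 74.2 in Eμ-TCL1;p53R172H/+ in DMSO. Of the p53R172H/+ libraries 4 were above every Eμ-TCL1 library and replicate 4 was below. In ibrutinib Sesn1 ran from 33.5 to 47.8 and from 38.1 to 59.3. Slc19a2, a thiamine transporter, was 21.2 and 17.2 in the myeloid-rich libraries and from 3.8 to 8.9 in all others. Cd82, a tetraspanin, was 63.8, 39 and 36.6 in Eμ-TCL1 and 108.2, 99.7, 32.9, 61.2 and 45 in Eμ-TCL1;p53R172H/+ in DMSO, highest in the T-cell-rich libraries, and ran from 34.2 to 64.7 and from 46.9 to 68.8 in ibrutinib.

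**Figure D3:**
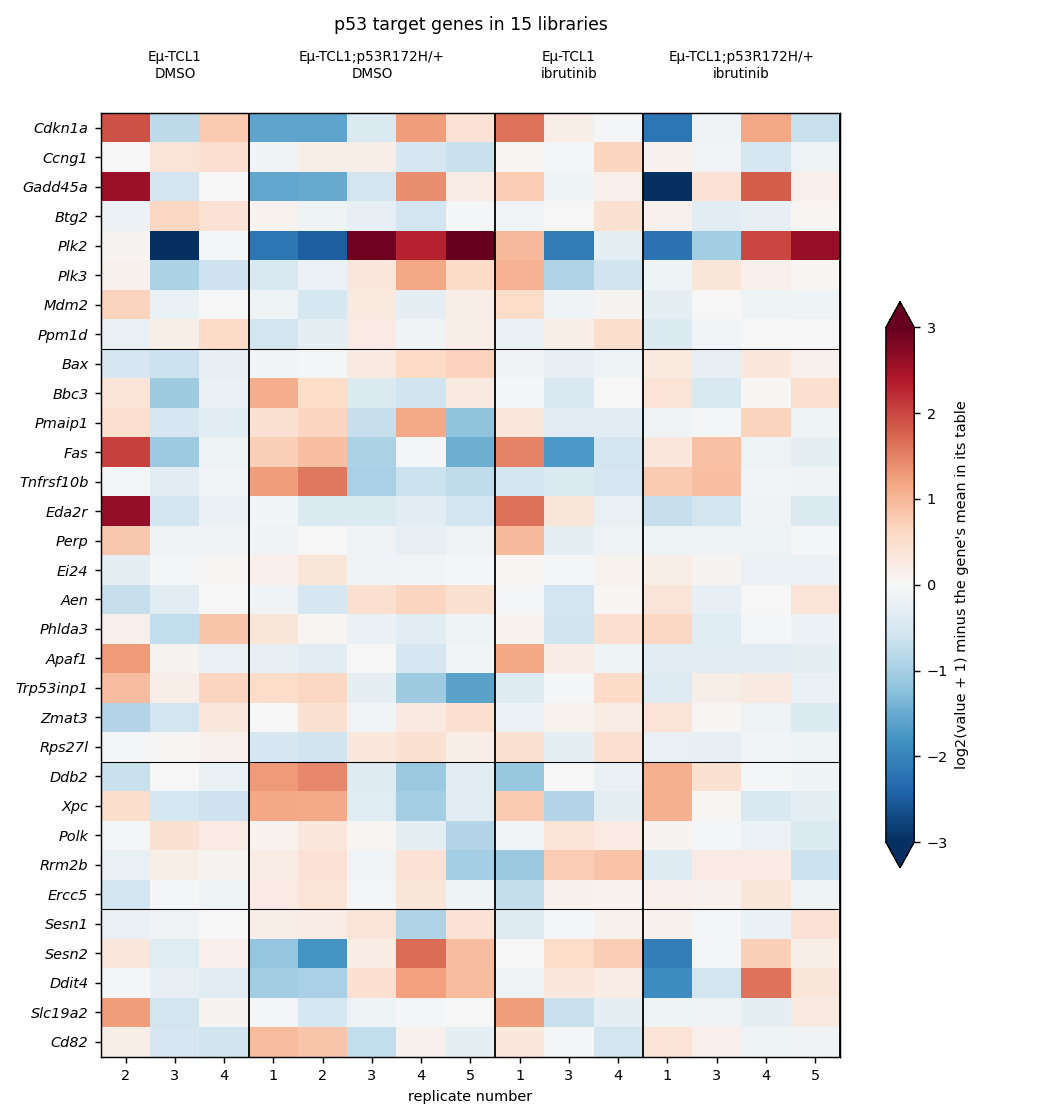
All 32 members in all 15 libraries. Colours are log2 of the value plus 1 minus the gene's mean over the libraries of the same treatment, black lines part the roles and the groups, and the colour scale ends at -3 and 3. Replicates 1 and 2 of Eμ-TCL1;p53R172H/+ in DMSO and replicate 1 in ibrutinib share low Cdkn1a, Gadd45a, Plk2, Sesn2 and Ddit4 and high Ddb2 and Xpc, and Eμ-TCL1 replicate 2 in DMSO and replicate 1 in ibrutinib share high Cdkn1a, Fas, Eda2r, Apaf1 and Slc19a2.

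The libraries that stood apart also parted the members within a genotype. In DMSO both T-cell-rich p53R172H/+ libraries were above the other 3 of their group for 10 members, against 27.6% of all genes, and below them for 10 members, against 29.0%. The members above were Bbc3, Cd82, Ddb2, Ei24, Fas, Phlda3, Polk, Tnfrsf10b, Trp53inp1 and Xpc, and those below were Aen, Bax, Cdkn1a, Ddit4, Gadd45a, Plk2, Plk3, Ppm1d, Rps27l and Sesn2. These shares are near those of all genes. In ibrutinib replicate 1 was above its group for 9 members (34.3% of all genes) and below it for 11 (30.3%). The myeloid-rich Eμ-TCL1 library was the highest of its group for 18 members in DMSO (37.9% of all genes) and 14 in ibrutinib (38.8%), and the lowest for 12 members in DMSO (44.8%) and 12 in ibrutinib (38.9%). The genotype comparison was therefore repeated without them.

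When the 2 T-cell-rich libraries were left out in DMSO, leaving 3 against 3, no member passed the test in limma, and 7 had an unadjusted p under 0.05, against 11.2% of all genes. The share of all genes without overlap between these 3 and 3 libraries was not computed. Partings of single members without the T-cell-rich libraries, given above, are therefore description only. Plk2 differed between genotypes by 3.94 on the log2 scale (standard error 0.98, adjusted p = 0.301 by limma), against 1.92 (standard error 1.59) over all libraries. The changes of Plk3 (1.16, adjusted p = 0.370), Ddit4 (1.11, adjusted p = 0.288), Bax (0.98) and Aen (0.87, adjusted p = 0.321) were also above 0 in limma. Those of Trp53inp1 (-1.57, adjusted p = 0.302) and Tnfrsf10b (-0.64, adjusted p = 0.413) were below 0. For Tnfrsf10b the direction was opposite to that over all libraries, which was 0.24. When the myeloid-rich library was left out as well, leaving 3 against 2, the same 7 members and Btg2 (-0.82, adjusted p = 0.181 by limma) had an unadjusted p under 0.05, against 17.1% of all genes.

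**Figure D4:**
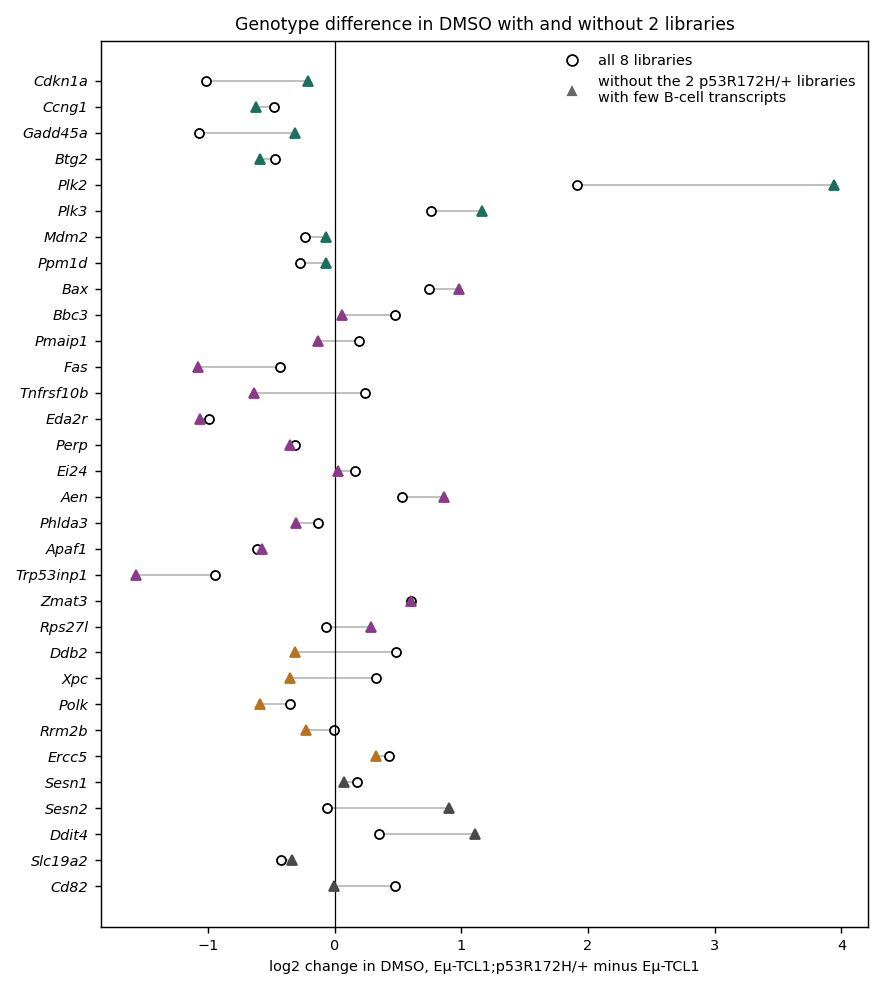
Log2 change of each member in DMSO, Eμ-TCL1;p53R172H/+ minus Eμ-TCL1, over all 8 libraries (open circles) and without the 2 p53R172H/+ libraries with few B-cell transcripts (triangles, coloured by role). Plk2 moved from 1.92 to 3.94 and Tnfrsf10b from 0.24 to -0.64, whereas Zmat3 and Apaf1 moved little.

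In ibrutinib the same comparison of genotypes called none of 16428 genes (0.0%) and none of the members in limma. The members with an unadjusted p under 0.05 were Apaf1, Eda2r and Tnfrsf10b, 3 in all, against 1973 genes (12.0%). Of these, Eda2r may have been listed only through Eμ-TCL1 libraries, so its p is no support for a difference. Log2 changes were below 0 for 18 members, against 54.4% of all genes, with medians of -0.08 and -0.05. The groups were without overlap for Apaf1, lower in p53R172H/+, and Tnfrsf10b, higher, against 12.7% of all genes. Each of these shares is near or below the background. Without the B-cell-poor replicate 1 of p53R172H/+, none of the members had an unadjusted p under 0.05 or an adjusted p under 0.05 in limma (9.74% of all genes had the former). Without the myeloid-rich Eμ-TCL1 library too, 3 members, Plk3 (0.93), Rrm2b (-0.86) and Polk (-0.53), had an unadjusted p under 0.05, against 17.7% of all genes, and none an adjusted p under 0.05. In both of these fits every p53R172H/+ library kept a higher T-cell sum than every Eμ-TCL1 library.

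Whether the genotype difference depended on treatment was tested as an interaction over all 15 libraries, in which a factor common to a treatment cancels. None of 15869 genes (0.0%) and no member passed in limma. The count at an unadjusted p under 0.05 was 83 genes (0.523%), with no member among them. For Cdkn1a the genotype difference in ibrutinib minus that in DMSO was -0.03 (standard error 1.22, 95% interval -2.67 to 2.60), and for Mdm2 it was -0.08 (standard error 0.34, 95% interval -0.82 to 0.67). This fit treats the libraries as independent, although most DMSO and ibrutinib libraries with the same number deviated from their group means together (correlations of 0.75 to 0.83 over 10627 genes in 5 of 6 such pairs, and -0.11 for p53R172H/+ replicate 3). With the replicate number as a block, the values were -0.46 for Cdkn1a (standard error 0.62) and -0.26 for Mdm2 (standard error 0.20). Then 2 members had an unadjusted p under 0.05, against 5.05% of all genes, and none passed in limma. That block ties p53R172H/+ replicate 3 across treatments, although its number does not mark the same mouse. It also leaves Eμ-TCL1 replicate 2 in DMSO and replicate 1 in ibrutinib unpaired, although their deviations correlated at 0.89. The block thus covers the pairing only in part. Without the 3 B-cell-poor libraries (p53R172H/+ replicates 1 and 2 in DMSO and 1 in ibrutinib) 4 members had an unadjusted p under 0.05, against 7.22% of all genes. None passed after adjustment, and other libraries with low B-cell sums stayed in this fit. They were Trp53inp1 (1.61, adjusted p = 0.519), Tnfrsf10b (1.37, adjusted p = 0.502), Bax (-0.75, adjusted p = 0.596) and Rps27l (-0.68, adjusted p = 0.688) in limma.

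No test was run between treatments, because the values were scaled separately, and the levels are given as a description after 2 common scalings. With every library brought to the same sum, 11 of 32 members were higher in ibrutinib in each genotype, but with the median ratio to the mean library 20 were higher in Eμ-TCL1 and 24 in p53R172H/+. The choice thus decides the split, and it moved the median of all genes from -0.23 and -0.27 to 0.03 and 0.03 (log2) in Eμ-TCL1 and p53R172H/+. Under both scalings Ddit4 and Sesn2 were higher in ibrutinib without overlap in Eμ-TCL1, against 0.744% of all genes, and no member was lower without overlap (1.39% of all genes). Scaled to the same sum, Sesn2 ran from 31.0 to 50.7 in DMSO and from 51.0 to 106 in ibrutinib, and Ddit4 from 21.5 to 23.5 and from 25.9 to 40.3. In Eμ-TCL1;p53R172H/+ no member was without overlap under both scalings, higher (0.693% of all genes) or lower (2.55%). There Sesn2 ran from 8.52 to 147 in DMSO and from 14.8 to 69.7 in ibrutinib. By the median ratio only, Trp53inp1 in p53R172H/+ was higher in ibrutinib without overlap, from 107 to 488 in DMSO and from 508 to 831 in ibrutinib. By that scaling only, Rps27l was lower in ibrutinib without overlap in both genotypes, and in Eμ-TCL1 Aen was lower and Bax higher. The shares of all genes by the median ratio were 3.54% higher and 3.65% lower in Eμ-TCL1 and 3.59% higher and 4.69% lower in p53R172H/+. The share of the column sum taken by mt-Rnr2, a mitochondrial ribosomal RNA, reached higher in ibrutinib, with overlap, from 3.44% to 20.7% in Eμ-TCL1 in DMSO and from 6.76% to 27.1% in ibrutinib, and from 3.29% to 7.51% and from 4.79% to 34.7% in p53R172H/+. Its part in the levels across treatments was not tested.

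The wider pathway was examined in the same fits. Of 23 further target genes, 21 were listed in DMSO and 20 in ibrutinib, and 13 and 16 had log2 changes below 0, against 46.7% and 54.4% of all genes. None passed in limma, and 2 in DMSO and 4 in ibrutinib, each lower in Eμ-TCL1;p53R172H/+, had an unadjusted p under 0.05, against 8.17% and 12.0% of all genes in either direction. Steap3, a ferrireductase, had log2 changes of -0.99 (standard error 0.31, adjusted p = 0.505 by limma) in DMSO and -1.94 (standard error 0.51, adjusted p = 0.264 by limma) in ibrutinib. Its values in ibrutinib ran from 4.9 to 12.3 in Eμ-TCL1 and from 0.3 to 2.8 in p53R172H/+, without overlap. The others were Ckap2 in DMSO (-1.40) and Gtse1 (-1.22), Dcxr (-1.04) and Pml (-0.83) in ibrutinib, of which Ckap2 and Gtse1 encode microtubule-associated proteins of dividing cells, Dcxr a carbonyl reductase and Pml the scaffold of nuclear bodies. The median log2 change of this list was -0.22 in DMSO and -0.34 in ibrutinib. Of 12 genes for p53 and its regulators, none passed in limma. An unadjusted p under 0.05 was found for Chek2 in DMSO (-0.90, from 12.6 to 19.6 and from 7.1 to 9.5) and for Chek1 in ibrutinib (-0.88, from 4.8 to 6.1 and from 1.8 to 3.6), the kinases that relay DNA damage signals, both lower in p53R172H/+ without overlap. A count of 1 gene of 12 per treatment is near the share of all genes with such a p (8.17% and 12.0%) or without overlap (6.45% and 12.7%).

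Reads shared with other genes bear on some members. Exons of 7 members, Cdkn1a, Gadd45a, Plk3, Bax, Ei24, Ddb2 and Rrm2b, overlap an exon of another gene in GENCODE M21, on the opposite strand in all but Bax. The sources used here do not say whether reads were counted by strand, so reads in these stretches cannot be told apart.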

How the data were processed

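RNA was sequenced in 15 samples, in 4 groups taken from the labels. Per the submitters' processing notes, reads were aligned with TopHat2 2.0.12 to mm10 (GRCm38), handled with SAMtools 0.1.19, counted with HTSeq and normalized with edgeR. The authors annotated genes with GENCODE M2 and removed genes under 0.5 CPM. The deposited signal values are counts scaled by the authors to an effective library size, with factors set separately in 2 tables, 1 per treatment, and rounded to 0.1. Depth is unknown, so no counting error is given, and no test on read counts was run.

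Genotypes were compared within a table by lmFit and eBayes (with a trend) of limma 3.58.1, run in R 4.3.3, on log2(value + 1) over all genes, with Benjamini-Hochberg adjustment at 0.05. The interaction used all samples and the genes of both tables. The fit was tested on simulated data with larger changes than those of most members, less spread and independent libraries. That check gives no power or error rate for these data. Two-sided exact permutation tests of log2 values used scipy 1.17.1. They were run only for Cdkn1a, Mdm2 and members with an unadjusted p under 0.05 in limma on the same values. Groups without overlap always give their smallest p, so they add no separate support. Promoter windows and exons came from RefSeq and GENCODE M21. Plots were made in Python 3.11.15 with matplotlib 3.10.9. The members, lists and several alternatives were chosen with earlier results of these data known. Levels were given for each member, and log2 changes with errors for members with an unadjusted p under 0.05 in a comparison, for Cdkn1a and for Mdm2. Of other pathway genes, those with an unadjusted p under 0.05 and Trp53 were named. As alternatives, the pseudocount was set to 0.1 or 5, genes under a mean of 5 were dropped, and other scalings, sample quality weights, a replicate block, sex as a covariate and fewer libraries were tried. Leaving out the libraries with high Lyz2 and the median ratio scaling were chosen after seeing the data. A gene of the B-cell marker list is not reported here.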

Additional observations from a re-analysis of the deposited data

Results flagged for a closer look

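In 64 groups of 4 or 5 libraries (32 members in Eμ-TCL1;p53R172H/+ in DMSO and in ibrutinib), 3 held a single library far from the others by Dixon's criterion, which chance alone meets in about 1 in 20 groups. Pmaip1 was 19.2 in replicate 4 in ibrutinib, against 10.7 to 11.2 in the other 3 libraries. Perp was 0.2 in replicate 5 in ibrutinib, against 0.1 in each of the others, a difference of a single rounding step. Sesn1 was 28.6 in replicate 4 in DMSO, against 63.4 to 74.2 in the others.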

How the results depend on the processing

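The count of members called in DMSO stayed 0 under every alternative but sample quality weights, which called 2, Plk3 and Btg2, beside 4.88% of all genes. In ibrutinib and for the interaction it was 0 under all, the replicate block included, which left 0 called in each comparison. Direction was less stable than the count of calls, since under some alternative it turned for 17 of 32 members in DMSO, 16 in ibrutinib and 21 in the interaction. For Mdm2 in DMSO it turned to 0.15 with quality weights, 0.10 with sex as a covariate and 0.19 without the B-cell-poor and high-Lyz2 libraries, and ran from -0.42 to 0.021 as each library was left out. Without those libraries Cdkn1a turned to 0.42 in DMSO and 0.041 in ibrutinib. The interaction of Cdkn1a turned to 0.030 with a pseudocount of 5, 0.26 with quality weights and 0.0064 with sex as a covariate, and ran from -0.67 to 0.68 as each library was left out. That of Mdm2 turned to 0.13 with quantile normalization and ran from -0.34 to 0.11. The cause was not tested. Bax in DMSO ran from 0.65 to 0.86 with each library left out. A mean value of at least 5 left 28 members.

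The replicate numbers did not pair the genotypes: the correlation of same-numbered libraries' deviations from their group means, over 10627 genes, was 0.19, 0.28 and 0.04 in DMSO and -0.04, -0.19 and -0.17 in ibrutinib. Between treatments it was 0.82 and 0.83 for Eμ-TCL1 replicates 3 and 4, 0.80, -0.11, 0.75 and 0.76 for p53R172H/+ replicates 1, 3, 4 and 5, and 0.89 for Eμ-TCL1 replicate 2 in DMSO with replicate 1 in ibrutinib. With the replicate block the members with an unadjusted p under 0.05 were 1 in DMSO, 1 in ibrutinib and 2 in the interaction, against 5.89%, 9.07% and 5.05% of all genes, and the log2 change of Bax in DMSO was 0.74. The unknown depth limits what can be said of Perp and Eda2r, whose values lie near the rounding step of 0.1 in most libraries.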
